A study of Mus musculus with 14 samples.

Results

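The hypoxia response and glycolysis genes followed here are 38 of the 35275 genes in the deposited expression table, chosen by name from known roles in sensing low oxygen, in the response to it and in the breakdown of glucose to lactate. The choice was made with earlier results of these data known, so counts set against all genes are not independent of the data. They fall into 4 genes of oxygen sensing, 12 targets of hypoxia-inducible factor (HIF) outside glycolysis, 10 genes of glucose uptake and upper glycolysis, 9 of lower glycolysis and 3 that act on the fate of pyruvate. Expression was measured by RNA sequencing in 5 mouse ovarian tumor cell lines that share a C57Bl6 origin, descend from ID8 cells by passage in mice, and were grown for 5 days as anchorage-independent tumorspheres in PromoCell XF medium. KMF is the parental line (n = 3), and FAK KO is KT13, 1 clone of KMF cells in which CRISPR editing inactivated Ptk2, the gene of focal adhesion kinase (FAK) (n = 3). FAK-WT cells are KT13 cells that re-express wild-type FAK fused to GFP (n = 3), and FAK-R454 cells are KT13 cells that express a kinase-inactive GFP-FAK (n = 2), both from a lentiviral CMV promoter. β-catenin ΔGSK cells are KT13 cells that carry a stabilized β-catenin lacking the sites phosphorylated by GSK3, from a retroviral vector (n = 3). All 3 transduced lines therefore keep the Ptk2 edit of the KT13 clone and were selected after transduction. No KT13 line with an empty vector is among the samples. Relative to FAK KO, the effect of the inserted gene therefore cannot be told apart from that of transduction and selection. In KMF against FAK KO the loss of FAK cannot be told apart from the derivation of the clone.

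Cells read oxygen through prolyl hydroxylases, which use it to mark the α subunit of HIF for degradation. When oxygen is short the α subunit accumulates, pairs with ARNT and binds short DNA elements with the core ACGTG or GCGTG near genes of glucose transport, glycolysis, lactate export, pH control and blood vessel growth. Many of these genes also respond to MYC, growth factor and nutrient signals in well-oxygenated tumor cells, and the packed core of a sphere can be poorly oxygenated. The oxygen inside these spheres and the amount of HIF protein were not measured in these files, which hold mRNA values alone.

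The values are FPKM, fragments per kilobase of gene scaled to the total of the sample, and rest on 25390558 to 35289859 fragments per sample. A gene is called expressed where its mean was above 1 FPKM in at least 1 line, which held for 37 of the 38 genes. The exception was Adm, the gene of the vasodilator peptide adrenomedullin, which reached at most 0.127 FPKM in any sample. Lines were compared in pairs with limma on log2(FPKM + 0.1), with the standard error given as SE, and a gene passed at a Benjamini-Hochberg adjusted p under 0.05 over all genes tested in that pair. A smaller share of cells that express a gene and less of its RNA in each cell cannot be told apart in such bulk samples. The paper describes the KMF replicates as independent RNA samples taken at various passages, and those of the other lines as replicate RNA samples. For the other lines the sources do not say whether cultures were separate, so the p-values measure the spread between these samples.

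The keratins Krt8, Krt18 and Krt19 (at least 160.4 FPKM in every sample), Wt1 (at least 71.7) and Msln (at least 43.2) were high in all 5 lines, whereas the epithelial markers Cdh1, Epcam, Krt7 and Pax8 stayed under 1 FPKM. Ptprc, Cd3e and Itgam, which mark leukocytes, reached at most 0.0149 FPKM, and the fibroblast genes Col1a2 and Lum at most 0.0370. The 5 fibroblast markers, mainly through Dcn, summed to 90.0 to 127 FPKM in FAK KO, 123 to 145 in FAK-WT, 122 to 132 in FAK-R454, 41.8 to 49.8 in KMF and 30.8 to 45.1 in β-catenin ΔGSK samples. The 5 leukocyte markers, nearly all Cd68, summed to 3.02 to 3.31 FPKM in FAK KO, 6.60 to 12.3 in FAK-WT, 4.29 to 4.40 in FAK-R454, 2.78 to 3.77 in KMF and 1.11 to 1.93 in β-catenin ΔGSK samples. Col1a1 and Pdgfra, 2 of the fibroblast markers, stood at 0.928 to 1.53 and 2.65 to 3.25 FPKM in FAK KO, 7.57 to 11.8 and 8.19 to 11.7 in FAK-WT, and 9.04 to 11.2 and 8.84 to 8.91 in FAK-R454 samples. The 12 markers of ovarian surface epithelium or mesothelium summed to 1081 to 1262 FPKM in FAK KO, 1577 to 1821 in FAK-WT, 1274 to 1311 in FAK-R454, 1186 to 1214 in KMF and 1236 to 1419 in β-catenin ΔGSK samples, and 5 of the 7 tested were called higher when FAK-WT was set against FAK KO. The part of these lists in the differences below was not tested. Ptk2 mRNA was 19.0 FPKM in FAK KO cells, 24.3 in KMF, 15.5 in β-catenin ΔGSK, 43.4 in FAK-WT and 62.4 in FAK-R454 cells, and small edits that inactivate a gene need not lower its mRNA. Some chromosomes shifted as a whole between lines, and calls that did not hold once each chromosome was centred on its own median are given beside the gene. Centring also added calls relative to FAK KO. Pdk1, P4ha1, Car12, Hk1, Gapdh and Pgk1 were newly higher for FAK-WT, and Pdk1 for FAK-R454. For KMF, Hk2, Ddit4, Tpi1 and Gapdh were newly higher and Pfkm newly lower. Calls over all genes fell to 30.3% for FAK-WT, 17.5% for FAK-R454 and 42.1% for KMF.

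The sequences shown are those upstream of genes that differed between the lines, of which Vegfa lacks the core. RefSeq promoters (GRCm38.p6) were matched for 35 of the 38 genes, all but Ndufa4l2, Ndrg1 and Slc2a3, and the 250 bases before the start were searched on both strands for ACGTG and GCGTG. Where a gene had several listed promoters, the one nearest its start was used. The share over all promoters counts every listed promoter, whether or not the gene was expressed, and the part of this unlike counting was not tested. Of the 35 promoters, 27 (77.1%) held a match, against 38.6% of 32851 RefSeq mouse promoters, and ACGTG alone occurred in 17 (48.6%) against 16.6%. Those without a match were Vegfa, Car12, Hk1, Gpi1, Aldoa, Tpi1, Eno2 and Pkm. Among them Gpi1 and Pkm were called higher in all 4 comparisons with FAK KO. The median GC content was 60.4% in the 35 and 52.4% in all promoters, and its part in the difference was not tested. In the promoters below, written 5′ to 3′ on the strand of the gene, capitals mark each match, read as CACGT or CACGC where it lies on the other strand, and the palindrome CACGTG counts as 2 matches, 1 on each strand. Bnip3 (chr7:138909507-138909756, minus strand) held 5 matches, Ldha (chr7:46845554-46845803, plus strand) 5, Pfkp (chr13:6648772-6649021, minus strand) 3, Slc16a3 (chr11:120948817-120949066, plus strand) 2 and Vegfa (chr17:46032378-46032627, minus strand) none.
Bnip3: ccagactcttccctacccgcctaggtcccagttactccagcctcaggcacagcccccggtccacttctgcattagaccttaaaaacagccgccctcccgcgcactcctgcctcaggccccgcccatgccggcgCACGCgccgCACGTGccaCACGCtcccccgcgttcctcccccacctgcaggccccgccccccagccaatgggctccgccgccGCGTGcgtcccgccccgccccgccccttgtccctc
Ldha: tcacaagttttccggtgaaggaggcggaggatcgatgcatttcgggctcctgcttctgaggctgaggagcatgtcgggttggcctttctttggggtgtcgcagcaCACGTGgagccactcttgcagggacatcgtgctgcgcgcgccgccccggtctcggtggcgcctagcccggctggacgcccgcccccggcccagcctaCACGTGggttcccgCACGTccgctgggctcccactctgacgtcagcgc
Pfkp: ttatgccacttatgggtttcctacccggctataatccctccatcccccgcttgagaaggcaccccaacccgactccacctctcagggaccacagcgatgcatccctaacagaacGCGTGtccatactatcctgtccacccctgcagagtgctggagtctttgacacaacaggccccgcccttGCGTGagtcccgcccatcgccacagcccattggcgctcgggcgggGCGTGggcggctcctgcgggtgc
Slc16a3: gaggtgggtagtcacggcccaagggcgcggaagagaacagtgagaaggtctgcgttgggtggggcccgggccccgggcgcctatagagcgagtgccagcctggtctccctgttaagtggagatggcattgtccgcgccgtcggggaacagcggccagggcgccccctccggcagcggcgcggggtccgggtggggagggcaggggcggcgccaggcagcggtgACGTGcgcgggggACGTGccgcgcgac
Vegfa: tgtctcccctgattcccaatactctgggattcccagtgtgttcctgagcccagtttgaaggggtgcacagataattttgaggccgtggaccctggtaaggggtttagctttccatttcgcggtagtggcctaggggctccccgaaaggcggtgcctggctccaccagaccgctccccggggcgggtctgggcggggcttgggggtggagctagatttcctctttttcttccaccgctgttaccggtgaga
A match is a string of letters and not a measured binding site, and a window without one says nothing about sites elsewhere, such as enhancers.

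Most of the 37 expressed genes shifted in the same direction in single samples of 4 of the 5 lines, which widens the error of the comparisons below. Their mean level relative to FAK KO, as a difference in log2(FPKM + 0.1), was 0.43, 0.62 and 1.31 in the 3 FAK-WT samples. The FAK KO samples stood at 0.10, 0.14 and -0.23, and the β-catenin ΔGSK samples at 0.77, 0.89 and 0.42. The KMF samples stood at 0.74, 0.61 and 0.98, and the FAK-R454 samples at 0.50 and 0.51. FAK-WT replicate 3 therefore lay far above the other FAK-WT samples, while FAK KO replicate 3 and β-catenin ΔGSK replicate 3 lay below theirs. FAK-WT replicate 3 was the highest of its line for 31 of the 37 genes, where 33.8% of 12256 expressed genes were highest in that sample. FAK KO replicate 3 was the lowest of its line for 29 genes (20.5% of all expressed genes), β-catenin ΔGSK replicate 3 for 29 (33.1%), and KMF replicate 3 was the highest for 28 (46.0%). The median over all genes moved far less, by -0.08 in FAK-WT replicate 3 against -0.07 and -0.06 in the other FAK-WT samples. Replicate 3 was the deepest sample of FAK-WT, KMF and β-catenin ΔGSK, with 31410807, 35289859 and 29428456 fragments, and the part of depth in these shifts was not tested.

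**Figure D1:**
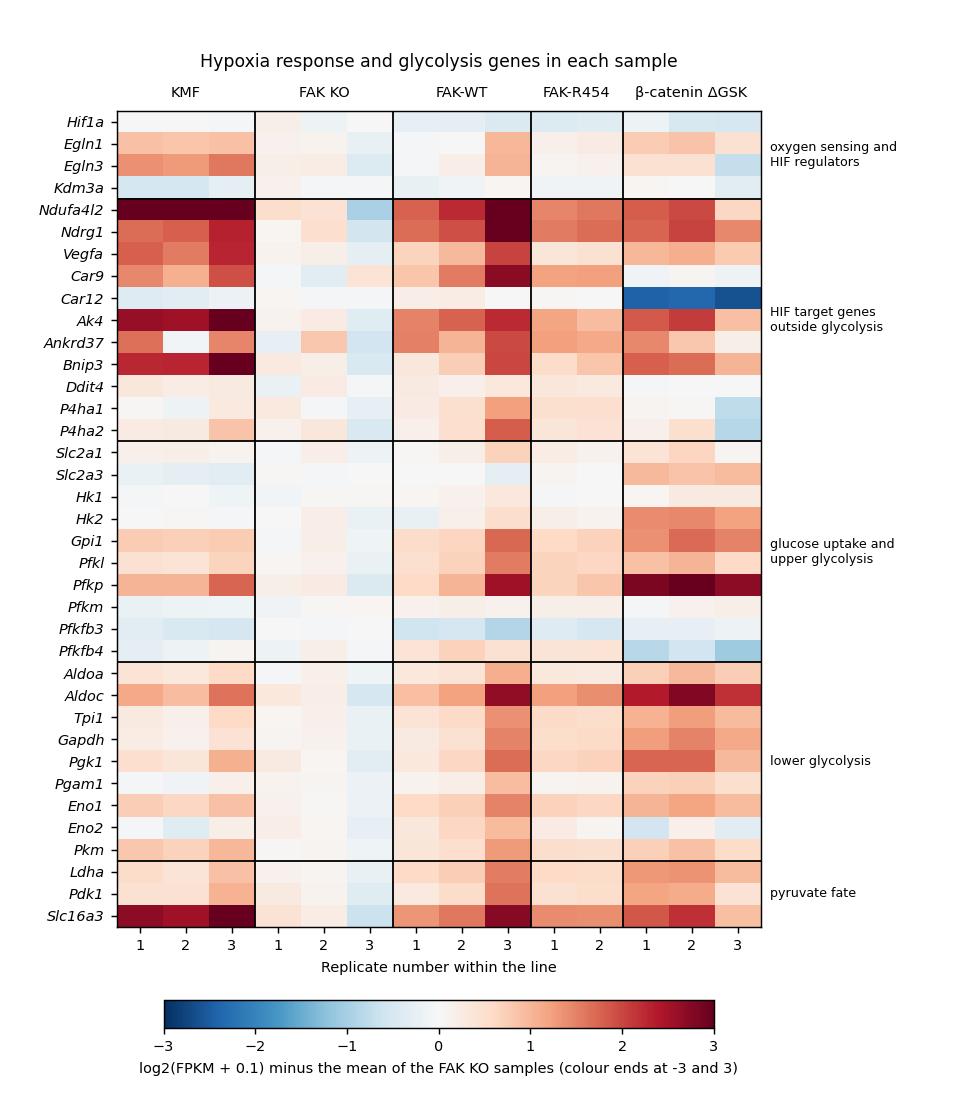
Each row is a gene and each column a sample, and the colour gives log2(FPKM + 0.1) minus the mean of the FAK KO samples. Replicate 3 of FAK-WT is darker than replicates 1 and 2 down most rows, and Car12 is far lower in the β-catenin ΔGSK samples, at 29.6 to 35.2 FPKM, than in any other sample.

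Pooled over the lines, the SD between replicates had a median of 0.31 for the 37 genes and 0.12 for all 12256 expressed genes on the log2 scale. Of the 37 genes, 23 lay above the upper decile of all genes (0.26). In FAK-WT cells the median SD was 0.50 against 0.09, with 28 of 37 genes above that line's upper decile. The FAK-R454 samples showed no such excess, with a median SD of 0.05 against 0.05 and 2 of 37 genes above the decile. An SD from 2 samples is imprecise. The genes that varied most were Ndufa4l2 (pooled SD 0.71), Ankrd37 (0.67), P4ha2 (0.58), Pfkp (0.56) and Slc16a3 (0.55), whereas Pfkm (0.07), Slc2a3 (0.09), Hk1 (0.10) and Car12 (0.10) varied no more than a typical gene. P4ha2, a catalytic subunit of the enzyme that hydroxylates collagen, shows this spread. It read 13.9, 16.00 and 9.21 FPKM in FAK KO, 14.2, 18.2 and 44.8 in FAK-WT and 16.3 and 17.1 in FAK-R454 samples, and 15.1, 15.3 and 23.2 in KMF and 14.05, 17.7 and 7.01 in β-catenin ΔGSK samples. The range within FAK-WT exceeded the gap between any of the line means, and P4ha2 passed in none of the 5 comparisons.

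**Figure D2:**
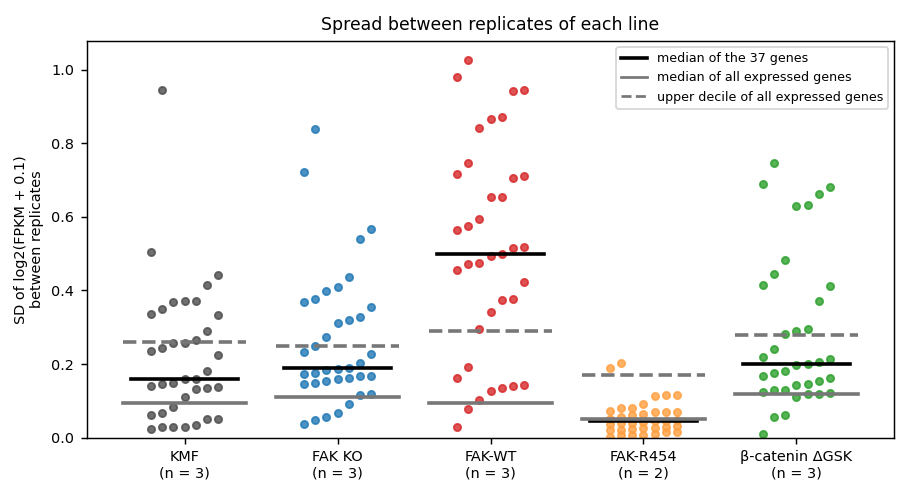
Points are the SD of log2(FPKM + 0.1) between the replicates of a line for each of the 37 expressed genes, black bars their median, and grey solid and dashed lines the median and upper decile of 12256 expressed genes. In FAK-WT cells 28 of the 37 points lie above the dashed line, and in FAK-R454 cells, with 2 samples, 2 do.

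Cells that re-express wild-type FAK were compared with FAK KO cells, which were not transduced, to see which of these genes differ. Of 37 genes tested, 18 were higher in FAK-WT cells and 2 lower, where 15.6% of all 11841 genes tested were called higher and 25.2% lower. Of the 18, 9 rose by a log2 fold change of 1 or more, a size that 2.91% of all genes reached with a call. The median log2 fold change was 0.73 for the 37 genes and -0.08 for all genes tested. By its median the increase was largest among HIF targets (6 of 11 higher, median 1.22) and extended to lower glycolysis (6 of 9 higher, median 0.73) and pyruvate fate (2 of 3 higher, median 0.96). Upper glycolysis was mixed (4 of 10 higher and 1 lower, median 0.23), and of the 4 oxygen sensing genes none was higher and 1 was lower. The count moved with single samples. Without FAK KO replicate 3, 8 genes were higher, and Eno2, Aldoc, Pfkl, Pfkp, Tpi1, Vegfa, Pfkfb4, Aldoa, Pkm and Gpi1 no longer passed. Without FAK KO replicate 1, 9 were higher, and Pfkl, Pfkp, Tpi1, Pfkfb4, Car9, Aldoa, Pkm, Gpi1 and Ankrd37 no longer passed. Without FAK-WT replicate 3 there were 19, with Car9 lost, and the median fell to 0.43. With replicate 3 of both lines left out, a setting chosen after seeing the data, 14 were higher and the median was 0.30. Calls over all genes moved as well, from 40.8% of genes tested, in either direction, to 23.0% without FAK KO replicate 3, 29.3% without FAK KO replicate 1, 38.8% without FAK-WT replicate 3 and 23.3% without replicate 3 of both.

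The same comparison with kinase-inactive FAK gave 15 of 35 genes higher in FAK-R454 than in FAK KO cells and 2 lower, where 9.78% of all 11818 genes were called higher and 9.89% lower. With a log2 fold change of 1 or more there were 4 genes, Ndufa4l2, Ndrg1, Aldoc and Slc16a3, where 1.93% of all genes were called. The median was 0.42 for the 35 genes and -0.03 for all genes. Lower glycolysis held 6 of the 15 (6 of 9 tested, median 0.55), HIF targets 4 of 9 (median 0.49), upper glycolysis 3 of 10 (median 0.17) and pyruvate fate 2 of 3 (median 0.58). Here too the count moved with single samples, to 13 without FAK KO replicate 3, 23 without FAK KO replicate 2, 5 without FAK-R454 replicate 1 and 6 without FAK-R454 replicate 2. Calls over all genes moved alike, from 19.7% of genes tested, in either direction, to 9.97%, 37.1%, 4.63% and 5.14% in the same order. P4ha1, Pfkp, Tpi1, Slc16a3, Ndufa4l2, Gapdh, Pgk1, Ldha and Bnip3 no longer passed when either FAK-R454 sample was left out, and Pkm without replicate 1. In a joint fit of the 5 lines, which share 1 estimate of the spread, 5 genes were higher, Ddit4 newly among them. P4ha1, Pfkl, Pfkp, Tpi1, Pkm, Gpi1, Ndufa4l2, Gapdh, Pgk1, Ldha and Bnip3 no longer passed there, where 17.6% of all genes were called. Because 2 FAK-R454 samples were available, leaving out either of them assumes that the remaining sample varies as the FAK KO samples do.

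Stabilized β-catenin gave the longest list. In β-catenin ΔGSK cells 24 of 36 genes were higher than in FAK KO cells and 4 lower, where 23.7% of all 11915 genes were called higher and 34.4% lower. Of these, 14 rose by a log2 fold change of 1 or more (5.13% of all genes), and Car12 fell by at least that much (6.99% of all genes). The median was 0.82 for the 36 genes and -0.09 for all genes. By role, 8 of 9 genes of lower glycolysis (median 1.05), 7 of 10 of upper glycolysis (median 0.60) and all 3 of pyruvate fate (median 1.20) were higher, together with 5 of 10 HIF targets (median 0.88) and 1 of 4 oxygen sensing genes. Leaving out any 1 sample left 21 to 24 genes higher, with Slc2a1, Hk1 or Ndufa4l2 the ones lost, and leaving out replicate 3 of both lines left 23. Over all genes, 58.1% were called in either direction, 47.6% to 61.2% with any 1 sample left out and 38.3% without replicate 3 of both. Rescaling the samples by the median of ratios moved the median of all genes from -0.09 to 0.02 and left 24 genes higher and 2 lower.

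Parental KMF cells were compared with the FAK KO clone derived from them. Of 37 genes, 19 were higher in KMF and 4 lower, where 23.1% of all 11893 genes were called higher and 28.7% lower, and 10 rose by a log2 fold change of 1 or more (3.97% of all genes). The median was 0.51 for the 37 genes and -0.05 for all genes. HIF targets had the highest median (1.48, 6 of 11 higher), all 3 genes of pyruvate fate and 5 of 9 of lower glycolysis were higher (median 0.65 and 0.44), whereas upper glycolysis had 3 of 10 higher, 2 lower and a median of -0.03. The 19 became 17 to 22 when single samples were left out, with Pdk1 or Pgk1 the ones lost, and 18 with KMF replicate 3 and FAK KO replicate 3 left out together, while calls over all genes went from 51.8% to between 39.9% and 52.5%, and to 42.6%. These 4 comparisons share the 3 FAK KO samples, so a low or high FAK KO sample moves all of them together.

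**Figure D3:**
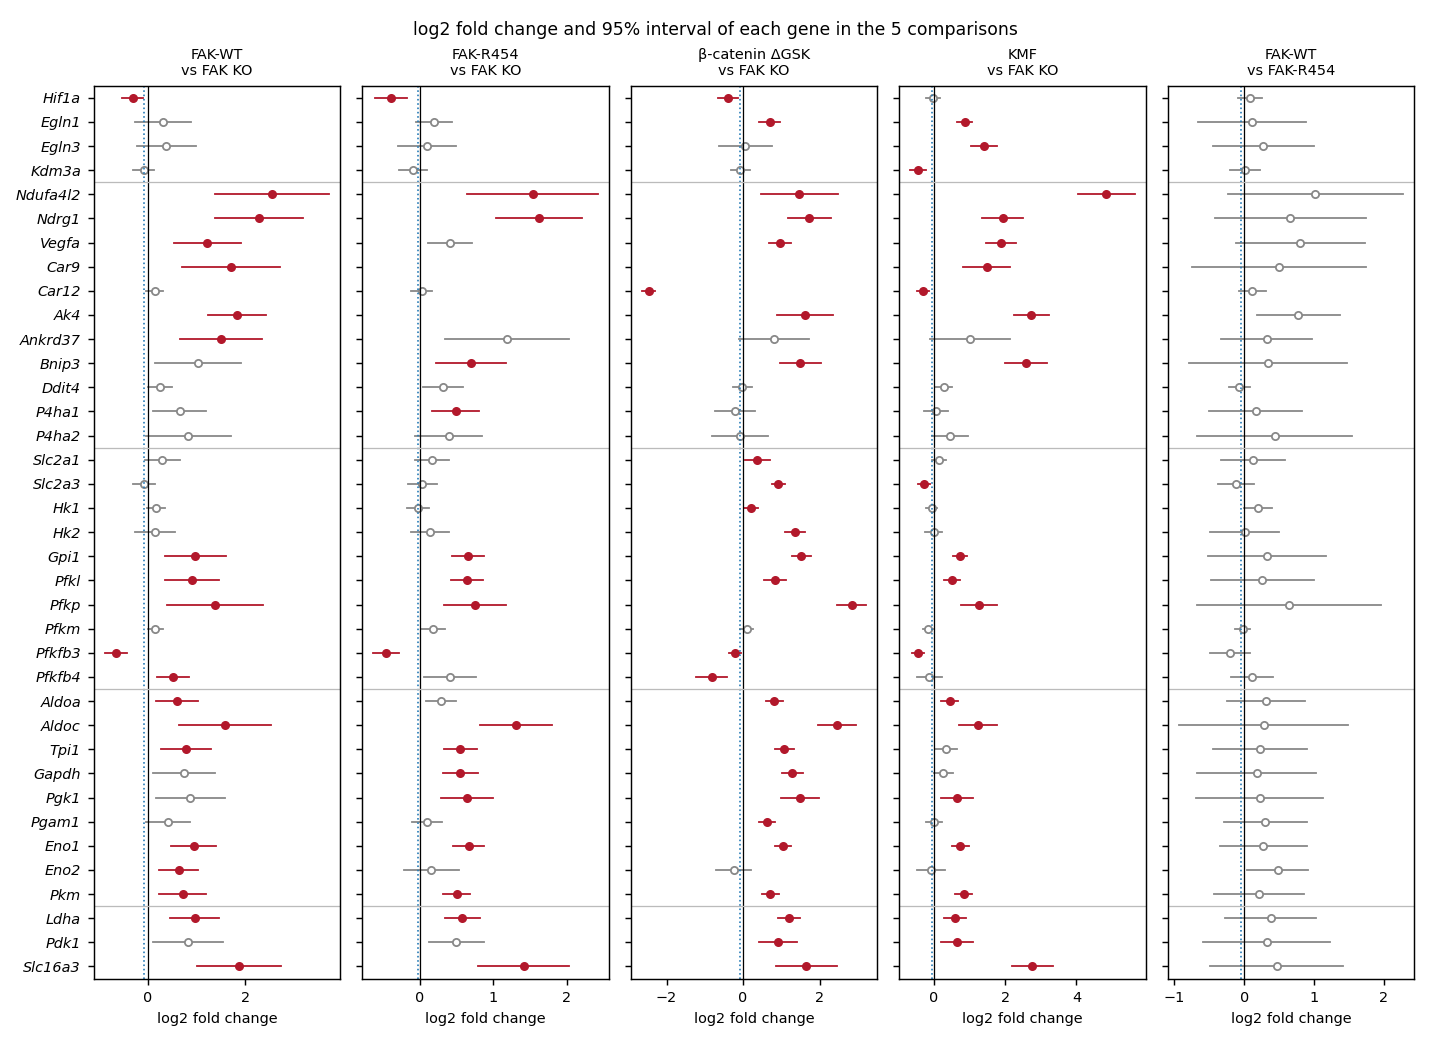
Points are log2 fold changes of each expressed gene and lines their 95% intervals, filled red where limma gave an adjusted p under 0.05, in 5 panels for the 5 comparisons with their own axis ranges. The dotted blue line is the median of all genes tested, which lies between -0.09 and -0.03, and the panel of FAK-WT against FAK-R454 holds no filled point.

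Hif1a, which encodes the oxygen-labile HIF-1α subunit, did not follow its targets. Hif1a (ENSMUSG00000021109, chromosome 12, 73901375 to 73947530) read 40.6, 32.2 and 35.4 FPKM in FAK KO, 30.5, 29.96 and 26.7 in FAK-WT and 26.8 and 28.05 in FAK-R454 samples. The KMF samples read 35.4, 35.7 and 34.4 and the β-catenin ΔGSK samples 32.2, 25.6 and 25.2 FPKM. FAK-WT and FAK-R454 samples lay below every FAK KO sample, KMF samples lay within the FAK KO range, and β-catenin ΔGSK replicate 1 almost touched the lowest FAK KO sample while the other two lay well below it. The log2 fold change relative to FAK KO was -0.31 in FAK-WT (SE 0.09, limma adjusted p = 0.0313), -0.39 in FAK-R454 (0.10, 0.0279), -0.03 in KMF (0.09, 0.793) and -0.39 in β-catenin ΔGSK cells (0.12, 0.0195). The decreases are small, and those in FAK-WT and β-catenin ΔGSK cells no longer passed when the samples were rescaled by the median of ratios (-0.24, adjusted p = 0.0625 and -0.28, adjusted p = 0.0555). Single samples decided these calls too, because the decrease lost its call in FAK-WT without FAK KO replicate 1 or 3 or FAK-WT replicate 2 or 3, in FAK-R454 without FAK KO replicate 3 or either FAK-R454 sample, and in β-catenin ΔGSK without FAK KO replicate 1 or β-catenin ΔGSK replicate 2 or 3. With chromosomes centred the FAK-WT value was -0.24, adjusted p = 0.0655.

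The prolyl hydroxylases that sense oxygen had different profiles over the lines. Egln3, a prolyl hydroxylase that acts on HIF-α and is itself a HIF target, read 59.5, 61.4 and 39.5 FPKM in FAK KO and 136, 127 and 157 in KMF samples, a log2 fold change of 1.41 (SE 0.16, limma adjusted p = 1.81e-04). In FAK-WT samples it read 50.1, 60.01 and 106, in FAK-R454 55.3 and 57.5 and in β-catenin ΔGSK 72.1, 71.9 and 31.7 FPKM. All KMF samples exceeded every sample of the other lines, and in FAK-WT the rise above FAK KO was that of replicate 3. Egln1, the main HIF prolyl hydroxylase, was higher in KMF (0.86) and β-catenin ΔGSK cells (0.70), with ranges that overlap (87.7, 85.4 and 88.98 against 81.5, 87.3 and 66.3 FPKM). Kdm3a, a histone demethylase and HIF target, was lower in KMF cells (-0.44), where genes of its chromosome 6 had a median 0.31 below that of the other chromosomes, and with each chromosome centred on its own median the decrease no longer passed (-0.14, adjusted p = 0.252).

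Ndufa4l2 showed the widest range of these genes. Its product, a mitochondrial protein related to a respiratory chain subunit, lowers oxygen use in hypoxia. Ndufa4l2 (ENSMUSG00000040280, chromosome 10, 127514939 to 127517152) read 419.7, 341 and 486 FPKM in KMF, 20.7, 19.4 and 7.26 in FAK KO and 48.96, 68.1 and 181 in FAK-WT samples. FAK-R454 samples read 39.9 and 43.2 and β-catenin ΔGSK samples 50.8, 56.5 and 21.9 FPKM. Each line exceeded FAK KO without overlap, and KMF exceeded every other line, with a mean of 415 ± 72.6 against 15.8 ± 7.41 FPKM in FAK KO (SD, n = 3 each). The log2 fold change relative to FAK KO was 4.84 in KMF (SE 0.35, limma adjusted p = 1.25e-05), 2.56 in FAK-WT (0.51, 0.00621), 1.47 in β-catenin ΔGSK (0.44, 0.0197) and 1.53 in FAK-R454 cells (0.38, 0.0284). Its exons share 32 bases with Shmt2 on the opposite strand, which had a mean of 72.4 FPKM in KMF and 32.3 in FAK KO cells, and reads there cannot be told apart without strand.

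Ndrg1, a cytoplasmic protein induced by hypoxia and other stress, had a flatter profile over the lines that exceeded FAK KO. It read 10.9, 15.02 and 7.08 FPKM in FAK KO, 33.8, 40.2 and 100.2 in FAK-WT and 31.1 and 33.98 in FAK-R454 samples. KMF samples read 33.9, 36.9 and 52.5 and β-catenin ΔGSK samples 35.4, 42.96 and 28.5 FPKM, and no sample of the 4 lines overlapped FAK KO. The log2 fold change was 2.28 in FAK-WT, 1.93 in KMF, 1.73 in β-catenin ΔGSK and 1.62 in FAK-R454 cells (SEs 0.40, 0.26, 0.25 and 0.25), each with an adjusted p under 0.05. Ndrg1 lies on chromosome 15 (66929321 to 66969640), whose genes had a median 0.39 above that of the other chromosomes in FAK-WT and 0.18 above it in FAK-R454 when each was set against FAK KO, and with chromosomes centred the values were 1.98, adjusted p = 0.00950 and 1.46, adjusted p = 0.00785.

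Vegfa, the growth factor that directs blood vessel growth, read 41.05, 43.6 and 31.5 FPKM in FAK KO, 61.1, 74.8 and 157 in FAK-WT and 49.4 and 52.9 in FAK-R454 samples. In KMF samples it read 133, 113 and 186 and in β-catenin ΔGSK samples 76.4, 82.1 and 66.5 FPKM. KMF was highest by its mean (144 ± 37.7 FPKM, SD, n = 3), although FAK-WT replicate 3 lay within the KMF range. On the log2 scale Vegfa exceeded its FAK KO level by 1.87 in KMF, by 1.22 in FAK-WT and by 0.96 in β-catenin ΔGSK cells (limma adjusted p = 7.05e-05, 0.0146 and 2.73e-04). In FAK-R454 cells the log2 fold change was 0.42 (SE 0.13, adjusted p = 0.0562), and both samples lay above the FAK KO range. Vegfa lies on chromosome 17, whose genes had a median 0.24 above that of the other chromosomes in FAK-WT and 0.27 above it in KMF relative to FAK KO cells.

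Bnip3, which acts in the removal of mitochondria, and Ak4, a mitochondrial adenylate kinase, were highest in KMF. Bnip3 read 29.98, 30.4 and 55.4 FPKM in KMF, 7.49, 6.90 and 4.43 in FAK KO, 7.79, 10.3 and 25.00 in FAK-WT, 9.02 and 11.02 in FAK-R454 and 21.4, 19.6 and 12.5 in β-catenin ΔGSK samples. Its log2 fold change relative to FAK KO was 2.58 in KMF, 1.49 in β-catenin ΔGSK and 0.69 in FAK-R454 cells, which passed (limma adjusted p = 8.58e-05, 7.45e-04 and 0.0484), and 1.03 in FAK-WT cells (SE 0.38, adjusted p = 0.0602). The larger difference in FAK-WT missed the threshold that the smaller one in FAK-R454 met, and FAK-WT samples spread from 7.79 to 25.0 FPKM. The call in FAK-R454 did not hold with chromosomes centred (0.63, adjusted p = 0.0652). Ak4 was scarcer, at 2.94, 2.78 and 4.08 FPKM in KMF, 0.434, 0.493 and 0.287 in FAK KO, 1.29, 1.61 and 2.23 in FAK-WT, 1.03 and 0.840 in FAK-R454 and 1.68, 2.04 and 0.834 in β-catenin ΔGSK samples. It rose by 2.74, 1.83 and 1.62 in KMF, FAK-WT and β-catenin ΔGSK relative to FAK KO cells, and the rise in KMF was smaller with a pseudocount of 1. The mean of Ak4 in FAK-R454 was under the 1 FPKM needed for a test against FAK KO. For both genes no sample of the other 4 lines overlapped the FAK KO samples.

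The membrane carbonic anhydrases, which hydrate carbon dioxide at the cell surface, differed from each other. Car12 (ENSMUSG00000032373, chromosome 9, 66713686 to 66766845) read 189, 178 and 178 FPKM in FAK KO, 209.8, 212 and 181 in FAK-WT and 188 and 183 in FAK-R454 samples. In KMF samples it read 138, 144 and 160.3 and in β-catenin ΔGSK samples 33.6, 35.2 and 29.6 FPKM. The β-catenin ΔGSK samples lay far below those of every other line, a log2 fold change of -2.47 relative to FAK KO (SE 0.08, limma adjusted p = 5.34e-08), and KMF was lower than FAK KO by a smaller step (-0.30, adjusted p = 0.00821). Car9 was near the limit of detection, at 0.345, 0.265 and 0.512 FPKM in FAK KO, 1.16, 0.868 and 1.68 in KMF, 0.729, 1.27 and 2.94 in FAK-WT, 0.961 and 0.983 in FAK-R454 and 0.331, 0.389 and 0.319 in β-catenin ΔGSK samples. It rose by 1.71 in FAK-WT and 1.48 in KMF relative to FAK KO cells (limma adjusted p = 0.0171 and 0.00295). At so low a level the size depends on the pseudocount, and the rise in FAK-WT was smaller with a pseudocount of 1. Of its exons, 214 bases overlap Gm12454 on the opposite strand, which has a like mean of 0.704 FPKM.

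**Figure D4:**
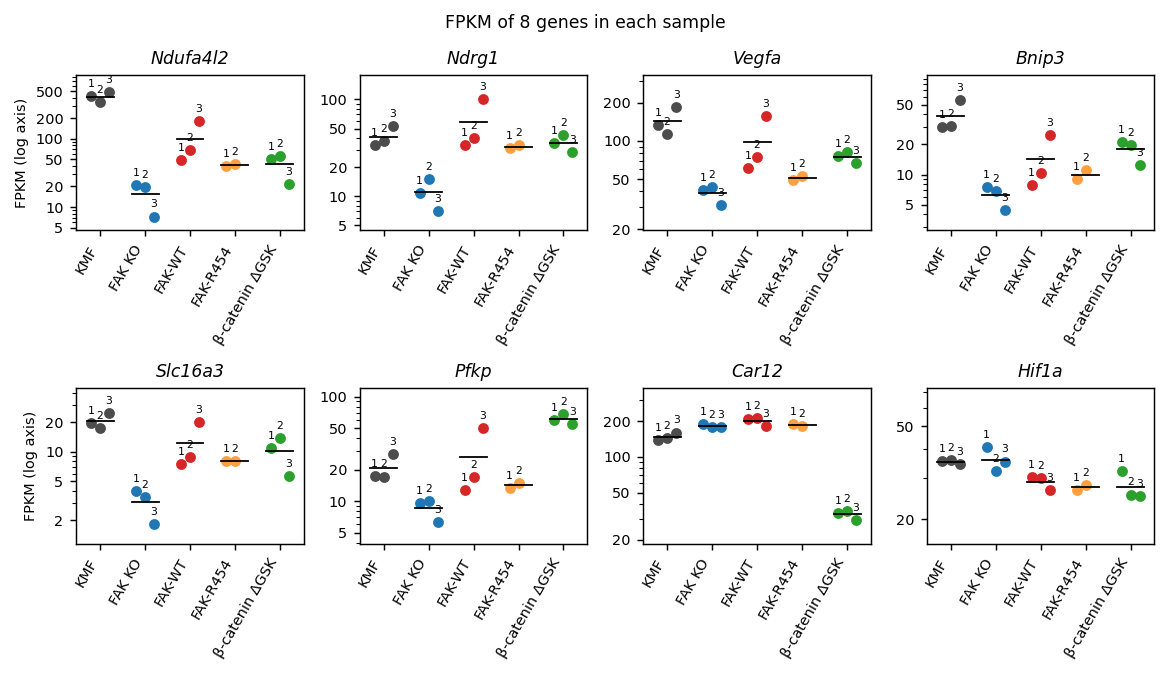
FPKM on a log axis for 8 genes, with a numbered point for each sample and a bar at the mean of each line. Ndufa4l2 runs from 7.26 FPKM in FAK KO replicate 3 to 486 in KMF replicate 3, Car12 is lowest in β-catenin ΔGSK samples, with KMF a smaller step below FAK KO, and Hif1a stays between 25.2 and 40.6 FPKM.

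The other HIF targets changed little or were too variable for a call in most pairs. Ankrd37, an ankyrin repeat protein and HIF target, read 0.609, 1.37 and 0.462 FPKM in FAK KO, 2.28, 1.61 and 3.19 in FAK-WT and 1.86 and 1.74 in FAK-R454 samples, and 2.52, 0.695 and 2.20 in KMF and 2.17, 1.36 and 0.843 in β-catenin ΔGSK samples. It passed in FAK-WT cells (1.51, limma adjusted p = 0.0135), where its call was lost without FAK KO replicate 1 (1.39, adjusted p = 0.0558), and 57 bases of its exons overlap the more abundant Ufsp2, at a mean of 13.5 FPKM. Ddit4, an inhibitor of mTORC1 signaling, had the highest mean of the HIF targets over all samples (163 FPKM), although the mean of Ndufa4l2 was higher in KMF and that of Car12 in every line but KMF and β-catenin ΔGSK. It read 127, 173 and 141 FPKM in FAK KO, 175, 162 and 180.3 in FAK-WT and 184 and 179 in FAK-R454 samples, with 183, 171 and 175 in KMF and 143, 145 and 144 in β-catenin ΔGSK samples. Ddit4 passed in no comparison of the main test, with log2 fold changes of -0.02 to 0.32 relative to FAK KO. The joint fit of the 5 lines called it higher in FAK-WT, FAK-R454 and KMF cells. In that fit 45.3%, 17.6% and 54.3% of all genes were called in either direction. P4ha1, the partner of P4ha2 in collagen hydroxylation, passed in FAK-R454 cells alone among the 4 lines compared with FAK KO (0.49, adjusted p = 0.0417), whereas the larger 0.65 in FAK-WT cells did not (adjusted p = 0.0559). The difference between these 2 lines was 0.16 (95% interval -0.50 to 0.83).

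Glucose enters through the transporters Slc2a1 and Slc2a3 and is trapped by hexokinases, and of the lines compared with FAK KO β-catenin ΔGSK had calls at each of these steps. Hk2, the inducible hexokinase, read 31.3, 31.6 and 26.8 FPKM in β-catenin ΔGSK against 11.7, 13.3 and 9.99 in FAK KO samples. It read 11.5, 11.9 and 11.1 in KMF, 9.87, 12.8 and 16.7 in FAK-WT and 13.1 and 12.4 in FAK-R454 samples, and no sample outside β-catenin ΔGSK reached that line's range. Relative to FAK KO its log2 fold change came to 1.36 in β-catenin ΔGSK (SE 0.11, limma adjusted p = 1.63e-05), and lay between -0.01 and 0.15 in the other 3 lines, where it did not pass. With chromosomes centred Hk2 was called higher in KMF as well. Slc2a3 was higher in β-catenin ΔGSK (0.92) and lower in KMF cells (-0.27), although the latter turned to 0.03, adjusted p = 0.773 when each chromosome was centred, since chromosome 6 as a whole was lower in KMF, and did not pass without KMF replicate 2 or FAK KO replicate 3. Slc2a1 and the constitutive hexokinase Hk1 rose by 0.38 and 0.21 in β-catenin ΔGSK cells and did not pass in the other lines. Hk1 passed as higher in FAK-WT with chromosomes centred.

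The next steps are isomerization by Gpi1 and the committed phosphorylation by phosphofructokinase, whose platelet, liver and muscle subunits are Pfkp, Pfkl and Pfkm. Gpi1 read 135, 159 and 129 FPKM in FAK KO, 206, 221 and 466 in FAK-WT and 214 and 227 in FAK-R454 samples, and 237, 230.3 and 237 in KMF and 362, 459 and 393 in β-catenin ΔGSK samples. It rose by 1.52 in β-catenin ΔGSK, 0.98 in FAK-WT, 0.74 in KMF and 0.65 in FAK-R454 when each was set against FAK KO. Pfkp (ENSMUSG00000021196, chromosome 13, 6579768 to 6648777) had the largest increase of glycolysis in β-catenin ΔGSK cells. It read 9.60, 9.97 and 6.26 FPKM in FAK KO, 12.8, 17.2 and 49.7 in FAK-WT and 13.4 and 15.1 in FAK-R454 samples, and 17.3, 17.2 and 28.5 in KMF and 60.4, 67.6 and 55.1 in β-catenin ΔGSK samples. Its log2 fold change reached 2.84 in β-catenin ΔGSK (SE 0.17, limma adjusted p = 2.20e-06), 1.38 in FAK-WT (0.44, 0.0342), 1.26 in KMF (0.23, 0.00196) and 0.75 in FAK-R454 cells (0.18, 0.0264). In FAK-WT cells replicate 3 alone came near the level of the β-catenin ΔGSK line. Its exons share 748 bases with Pitrm1 on the opposite strand, which was at 24.4 FPKM in β-catenin ΔGSK and 21.0 in FAK KO cells, a smaller difference than that of Pfkp.

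Among the remaining subunits and regulators, Pfkl rose by 0.91 in FAK-WT, 0.83 in β-catenin ΔGSK, 0.65 in FAK-R454 and 0.51 in KMF cells, whereas Pfkm passed in no comparison, with log2 fold changes of -0.16 to 0.18. Pfkfb3 and Pfkfb4 make fructose bisphosphate that activates phosphofructokinase. Pfkfb3 was lower than in FAK KO by -0.66 in FAK-WT, -0.45 in FAK-R454, -0.44 in KMF and -0.21 in β-catenin ΔGSK cells on the log2 scale, where it passed each time. The smallest of these decreases did not pass after rescaling by the median of ratios (-0.10, adjusted p = 0.243) or with chromosomes centred (-0.14, adjusted p = 0.115), nor without FAK KO replicate 1 or 3 or β-catenin ΔGSK replicate 1 or 2, and the decrease in FAK-R454 did not pass without FAK-R454 replicate 2. Pfkfb4, at 0.777 to 2.11 FPKM by line means, rose in FAK-WT (0.52) and fell in β-catenin ΔGSK cells (-0.82).

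Lower glycolysis holds the most abundant of these mRNAs. Gapdh, which oxidizes glyceraldehyde phosphate, read 1940.1, 2028 and 1595 FPKM in FAK KO, 2218, 2526 and 5148 in FAK-WT and 2676 and 2733 in FAK-R454 samples. KMF samples read 2161, 2029 and 2472 and β-catenin ΔGSK samples 4367, 5175 and 4059 FPKM. Gapdh is a common reference transcript, yet in β-catenin ΔGSK cells its log2 fold change was 1.29 relative to FAK KO (SE 0.12, limma adjusted p = 2.76e-05), in FAK-R454 0.55 (adjusted p = 0.00933), in FAK-WT 0.73 (adjusted p = 0.0646) and in KMF 0.26 (adjusted p = 0.0935). With chromosomes centred Gapdh was called higher in FAK-WT and KMF too. Within FAK-WT cells it ran from 2218 to 5148 FPKM. Fragments of 73 near-identical Gapdh copies in the table could be assigned to either, and those copies sum to 15.5 FPKM, a small part of the mean of 2938 FPKM.

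Aldoc, the brain-type aldolase, stood out from its more abundant paralog Aldoa. It read 8.24, 7.58 and 4.65 FPKM in FAK KO, 12.6, 15.3 and 42.6 in FAK-WT and 15.7 and 17.6 in FAK-R454 samples, and 14.6, 12.6 and 20.9 in KMF and 34.9, 45.7 and 30.8 in β-catenin ΔGSK samples. No sample of the 4 lines overlapped FAK KO, and Aldoc rose by 2.45 in β-catenin ΔGSK, 1.59 in FAK-WT, 1.23 in KMF and 1.31 in FAK-R454 cells (SEs 0.22, 0.42, 0.23 and 0.21). Aldoa, at 826 to 1453 FPKM by line means, rose by 0.82 in β-catenin ΔGSK, 0.61 in FAK-WT and 0.44 in KMF cells, where the call in FAK-WT did not hold with chromosomes centred (0.53, adjusted p = 0.0668), and in FAK-R454 it was 0.29 (limma adjusted p = 0.0535). Both abundant and scarce aldolase therefore had calls in the same direction, and the difference in size between the paralogs was not tested.

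Tpi1, which interconverts the triose phosphates, read 403, 428 and 339 FPKM in FAK KO, 516, 576 and 1008 in FAK-WT, 579 and 559 in FAK-R454, 467, 433 and 592 in KMF and 794, 925 and 744 in β-catenin ΔGSK samples. Pgk1, which makes the first ATP of the pathway, read 437, 378 and 286 in FAK KO, 453.6, 556 and 1149 in FAK-WT, 553 and 579 in FAK-R454, 510.0, 467 and 757 in KMF and 1215, 1210.3 and 709.9 in β-catenin ΔGSK samples. Eno1, the ubiquitous enolase, read 538, 511 and 441 in FAK KO, 755, 819 and 1380.5 in FAK-WT, 801 and 767 in FAK-R454, 827, 757 and 918 in KMF and 1008, 1125 and 948 in β-catenin ΔGSK samples. For each of these enzymes the 3 β-catenin ΔGSK samples lay above every FAK KO sample, and FAK-WT replicate 3 was the highest of its line. In β-catenin ΔGSK cells Tpi1 rose by 1.07, Pgk1 by 1.49 and Eno1 by 1.05 relative to FAK KO (limma adjusted p = 5.09e-05, 5.15e-04 and 2.56e-05). Eno1 also passed in FAK-WT (0.94), FAK-R454 (0.66) and KMF cells (0.75), Tpi1 in FAK-WT (0.79) and FAK-R454 (0.55), and Pgk1 in FAK-R454 (0.65) and KMF (0.64). Pgk1 in FAK-WT cells missed the threshold (0.87, adjusted p = 0.0521) but passed with chromosomes centred, as did Tpi1 in KMF cells.

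Pkm, the pyruvate kinase of most tissues, was at 880.2 FPKM on average in FAK KO cells and rose by 0.83 in KMF, 0.72 in FAK-WT, 0.71 in β-catenin ΔGSK and 0.50 in FAK-R454 cells. Gene-level values do not separate the M1 and M2 splice forms of Pkm. Pgam1, the phosphoglycerate mutase, passed in β-catenin ΔGSK cells (0.63) and had log2 fold changes of -0.01 to 0.41 in the other lines, and its copy Pgam1-ps2 was at 9.74 FPKM against 232 for Pgam1. Eno2, the neuronal enolase, was scarce (1.85 to 3.46 FPKM by line means) and passed in FAK-WT cells (0.64, limma adjusted p = 0.0212).

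Ldha and Slc16a3, the genes of lactate production and export, were called higher than in FAK KO in each of the other 4 lines. Ldha, which reduces pyruvate to lactate, read 423, 407 and 332 FPKM in FAK KO, 586, 645 and 1114 in FAK-WT and 587 and 565 in FAK-R454 samples, and 562, 507 and 705 in KMF and 956, 974 and 746 in β-catenin ΔGSK samples. All 4 lines lay above FAK KO without overlap, by 1.20 in β-catenin ΔGSK, 0.96 in FAK-WT, 0.60 in KMF and 0.58 in FAK-R454 cells on the log2 scale (limma adjusted p = 6.18e-05, 0.0106, 0.00607 and 0.00728). Slc16a3 (ENSMUSG00000025161, chromosome 11, 120948480 to 120960868) encodes the lactate exporter MCT4 and changed more. It read 3.98, 3.44 and 1.85 FPKM in FAK KO, 7.57, 8.94 and 20.04 in FAK-WT and 8.04 and 7.96 in FAK-R454 samples, and 19.5, 17.6 and 24.9 in KMF and 10.9, 13.8 and 5.62 in β-catenin ΔGSK samples. No sample of the 4 lines overlapped FAK KO, and the log2 fold change was 2.76 in KMF (SE 0.25, limma adjusted p = 5.03e-05), 1.88 in FAK-WT (0.38, 0.00621), 1.65 in β-catenin ΔGSK (0.35, 0.00372) and 1.41 in FAK-R454 cells (0.27, 0.0101). Pdk1, the kinase that keeps pyruvate out of mitochondrial oxidation, rose in β-catenin ΔGSK (0.91) and KMF cells (0.65), and in FAK-WT and FAK-R454 cells it stood at 0.82 and 0.50 (adjusted p = 0.0655 and 0.0645).

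**Figure D5:**
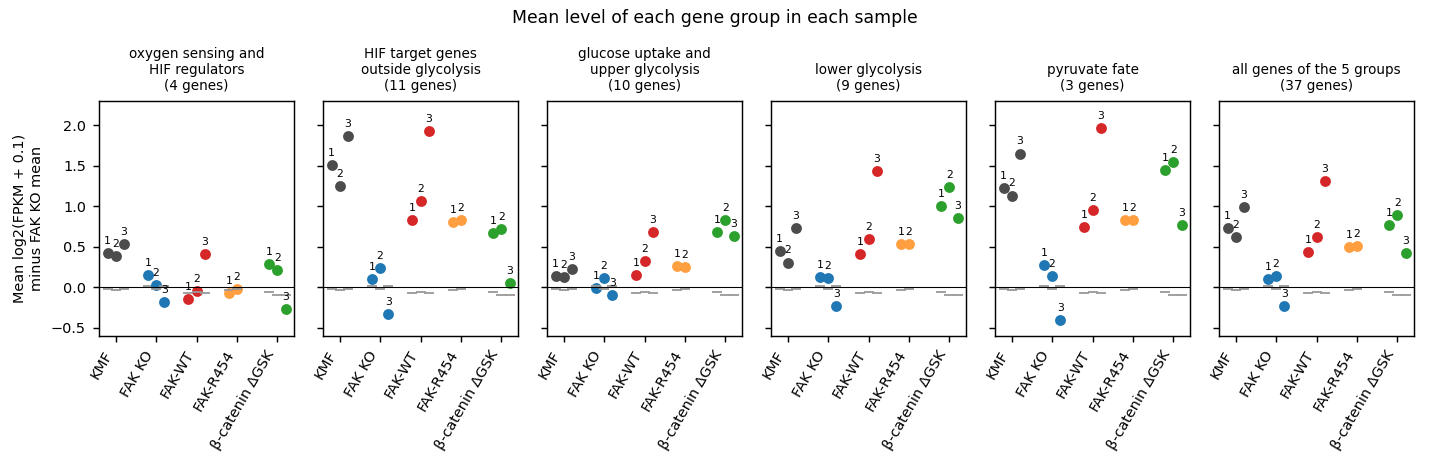
Each numbered point is the mean of log2(FPKM + 0.1) over the expressed genes of a role group in a sample, minus the mean of the FAK KO samples, and grey dashes are the median of all genes. For the 9 genes of lower glycolysis the FAK-WT samples stand at 0.41, 0.59 and 1.43 and the β-catenin ΔGSK samples at 1.00, 1.24 and 0.85, and for the 11 HIF targets the KMF samples stand at 1.50, 1.25 and 1.87.

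FAK-WT and FAK-R454 cells were compared directly to ask which genes depend on kinase activity. Ptk2 mRNA itself was lower in FAK-WT, at 43.4 against 62.4 FPKM (log2 fold change -0.52, limma adjusted p = 0.0121). The paper reports that the GFP-FAK proteins were equally expressed, and the part of this mRNA difference was not tested. None of 37 genes passed in either direction with limma, where 3.38% of all 11782 genes were called higher and 4.44% lower. At an unadjusted p under 0.05 there were 2 genes, Ak4 (0.78, limma adjusted p = 0.111) and Eno2 (0.48, limma adjusted p = 0.158), and limma-voom on recovered fragments called none. The median log2 fold change was 0.28 for the 37 genes and -0.05 for all genes, and 33 of the 37 were above 0. The intervals are wide and do not show that the lines are alike. The 95% interval of the difference was -0.24 to 2.28 for Ndufa4l2, -0.11 to 1.73 for Vegfa, -0.50 to 1.42 for Slc16a3, -0.68 to 1.96 for Pfkp, -0.27 to 1.03 for Ldha and -0.67 to 1.04 for Gapdh on the log2 scale. For Vegfa the 3 FAK-WT samples all exceeded both FAK-R454 samples, and the same was so for Ndufa4l2, whereas for Gapdh, Pfkp and Slc16a3 the FAK-WT range took in both FAK-R454 samples and for Ldha it took in replicate 1. The sample that widened these intervals was FAK-WT replicate 3, and without it the median fell to -0.03 and 4 genes passed as higher (Hif1a, Vegfa, Car12 and Ndufa4l2) and 1 as lower (Egln1), where 28.1% of all genes were then called in either direction.

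Further genes of the same pathways, outside the 38, were counted in the same way. Of 12 tested genes of the HIF machinery, 4 were higher and 1 lower in FAK-WT, 1 and 1 in FAK-R454, 3 and 1 in KMF, and 4 and 3 in β-catenin ΔGSK relative to FAK KO cells, with medians of 0.06, 0.05, 0.11 and 0.10. Epas1, which encodes HIF-2α, rose by 1.86 in KMF (limma adjusted p = 3.26e-06) and was 0.91 above its FAK-R454 level in FAK-WT cells (limma adjusted p = 0.0255). Of further HIF targets, 9 of 28 were higher and 2 lower in FAK-WT, 7 and 2 of 28 in FAK-R454, 15 and 6 of 28 in β-catenin ΔGSK, and 7 and 5 of 29 in KMF cells. Of all genes tested, 15.6% were called higher and 25.2% lower in FAK-WT, 9.78% and 9.89% in FAK-R454, 23.1% and 28.7% in KMF, and 23.7% and 34.4% for β-catenin ΔGSK cells. The 3 of 12 and 7 of 29 genes higher in KMF lie near these shares, as do the 1 higher and 1 lower of 12 in FAK-R454. The largest changes of the further targets ran in both directions. Cxcr4, a chemokine receptor, rose by 1.70 in FAK-WT and 1.66 in FAK-R454, but in β-catenin ΔGSK cells it was called lower, at 0.0401 FPKM against 1.43 in FAK KO. Lox, which crosslinks collagen, rose by 1.67 in FAK-R454, its relative Loxl2 by 1.57 in β-catenin ΔGSK and 1.20 in FAK-WT, and Stc2, a secreted glycoprotein, by 2.49 in KMF cells. Ppp1r3c, a glycogen-targeting phosphatase subunit, fell by 1.04 in FAK-R454 cells and in FAK-WT cells stood 1.24 above its FAK-R454 level.

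The remaining genes of glycolysis and pyruvate metabolism differed by line, with 3 of 20 higher and 11 lower in FAK-WT (median -0.24), 2 higher and 5 lower in FAK-R454 (median -0.12), 10 higher and 4 lower in β-catenin ΔGSK (median 0.27) and 4 higher and 8 lower in KMF (median 0.04). The numbers higher in FAK-WT, FAK-R454 and KMF cells lie near the shares of all genes given above. Ldhb, the lactate dehydrogenase subunit favoured in oxidative tissues, fell by 2.26 in KMF relative to FAK KO cells, to 28.2 from 135 FPKM. Bsg, the chaperone that carries the lactate exporter to the membrane, rose by 1.18 in FAK-WT cells. Of the 7 genes of the pentose phosphate pathway, 5 were higher and none lower in β-catenin ΔGSK cells (median 0.38), against 2 higher and 3 lower in FAK-WT, 1 higher in FAK-R454, and 1 higher and 2 lower in KMF cells.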

How the data were processed

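RNA from 14 tumorsphere samples of 5 lines was sequenced by the authors after poly(A) selection with an unstranded kit, and gene expression was deposited as FPKM for 35275 genes. The submitters' processing notes name CASAVA 1.8, STAR 2.5, DESeq2 and the build mm10, whereas the methods of the study name TopHat2, and which of these mapped the reads could not be settled. Multiplying FPKM by gene length gave whole fragments for 100% of the values above 0 (tolerance 0.01), which gave the depth of each sample.

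Samples were grouped by the submitted genotype. For each pair of lines, genes with a mean FPKM above 1 in at least 1 line entered limma 3.58.1 (R 4.3.3, eBayes with trend) on log2(FPKM + 0.1), a scale that understates the change of low genes, with Benjamini-Hochberg adjustment over all genes tested. Intervals are 95% intervals from the same fit. The test was checked on simulated counts with the same set spread for every gene and no shift shared by genes of a sample. The genes followed here varied more between replicates and shifted together in single samples, so that check does not cover them. The 38 genes, their role groups and the other gene lists were chosen with earlier results of these data known. Values in every sample are given for Hif1a, for genes that passed with an at least 2-fold change in any comparison, for the most abundant gene of each role group and for the 5 genes with the largest pooled SD, and up to 3 genes of the other lists are named per comparison. Promoters came from RefSeq (GRCm38.p6). Near-identical copies (at least 95% identity over 150 bases, BLAST 2.17.0) and overlapping exons were sought with GENCODE vM21. Its gene spans equal those of the table for most of the 38 genes. They differ for others, among them Ndufa4l2, Ankrd37, Gapdh and Pfkm, so overlaps given for such genes may not be those of the annotation behind the FPKM. Alternatives were other pseudocounts, filters and scaling, no trend, a joint fit of the 5 lines, limma-voom, centring of each chromosome, a fold threshold, the replicate number as a block and leaving out single samples.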

Additional observations from a re-analysis of the deposited data

How the results depend on the processing

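Relative to FAK KO, the 18 genes higher in FAK-WT cells became 11 with no FPKM filter, 24 in a joint fit of the 5 lines and 8 to 24 when single samples were left out. Of the 18, 9 had an at least 2-fold change. Calls over all genes fell from 40.8% to 20.04% with no filter, rose to 45.3% in the joint fit and ran from 23.0% to 43.6% with single samples left out. The 15 in FAK-R454 cells became 9 with no filter, 5 in a joint fit of the 5 lines and 5 to 23 with single samples left out, with 4 at least 2-fold, while calls over all genes went from 19.7% to 7.08%, 17.6% and 4.63% to 37.1%. The 24 in β-catenin ΔGSK cells ranged from 21 to 25 (14 at least 2-fold) and the 19 in KMF cells from 17 to 23 (10 at least 2-fold). The 2 genes lower in FAK-WT became 1 with no filter, median-of-ratios scaling, no trend, chromosomes centred or replicate 3 of both lines left out (1 to 2 with single samples left out, 0 at 2-fold). The 2 lower in FAK-R454 became 1 with no filter or no trend (0 to 2 with single samples left out, 0 at 2-fold). The 4 lower in β-catenin ΔGSK became 2 with median-of-ratios scaling or replicate 3 of both lines left out (2 to 4 with single samples left out, 1 at 2-fold), and the 4 lower in KMF became 0 at 2-fold. The cause of these changes was not tested. Slc2a3 in KMF turned from -0.27 to 0.032 with chromosomes centred, and no other call of a single gene in these 4 comparisons changed sign under the alternatives run.

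Replicate numbers did not pair the samples in most pairs of lines, with β-catenin ΔGSK and FAK KO closest to pairing. Deviations of same-numbered samples correlated at 0.45, 0.28 and 0.08 for β-catenin ΔGSK with FAK KO and at -0.25 to 0.14 in the other pairs of lines. With the replicate number as a block, calls relative to FAK KO moved by at most 1 gene. Calls over all genes rose from 58.1% to 68.4% in β-catenin ΔGSK. They fell from 40.8% to 37.1% in FAK-WT, from 19.7% to 15.4% in FAK-R454 and from 51.8% to 47.6% in KMF. In FAK-WT against FAK-R454, where the main test called 0, the block called 5 higher (Ndrg1, Vegfa, Car12, Hk1 and Ndufa4l2) and 4 lower (Aldoc, Egln1, Gapdh and Pgk1), or 4 and 3 with a pseudocount of 1, where it called 28.8% and 27.2% of all genes in either direction against 7.82% without it, and leaving out single samples gave 0 to 4 higher and 0 to 1 lower. At 25390558 to 35289859 fragments per sample, Adm lay below the FPKM filter of the main test. With no FPKM filter Adm was called higher in β-catenin ΔGSK than in FAK KO cells, at no more than 0.127 FPKM. In that setting 35.7% of all genes were called in either direction. A pseudocount of 1 lowered the log2 fold change of the scarce Car9 in FAK-WT from 1.71 to 0.863 and that of Ak4 in KMF from 2.74 to 1.59, both still passing.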
